A study of Mus musculus with 2 samples.

Results

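The transcription factor genes *Hoxa5*, *Hoxa7*, *Hoxa9*, *Hoxa10*, *Meis1*, *Hlf* and *Mecom* were followed here through mouse fetal liver cells that were set on the path to T cells. They were chosen by name, as 7 of the 28692 genes listed in the count matrices, and all 7 had counts in both libraries. The study derived T cells *in vitro* from hematopoietic stem and progenitor cells (HSPCs) of wild type CD1 mouse embryos at E13.5. Fetal liver cells were depleted of TER-119 positive cells, which are of the red cell lineage, and HSPCs with Sca-1 and cKit on their surface were sorted. For culture, they were plated at 1000 cells per well. The plates were coated with the Notch ligand DL4 at 10 µg/mL and the adhesion molecule VCAM-1 at 2.32 µg/mL. Single cells were captured in 2 droplet libraries, FL001 and FL002, which carry the same labels apart from their names, and the labels do not say how long the cells of a library had been in culture. The labels thus name no genotype or treatment that separates the libraries, and each was analysed alone. The paper describes cells taken at several times of culture and cells captured right after sorting, so some barcodes may be of cells that were never plated. Whether culture time separates the libraries is not known.

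Hox proteins bind DNA together with partners of the Pbx and Meis families, and Meis1 is such a partner. In blood, the posterior Hoxa genes and *Meis1* keep stem and progenitor cells growing, are shut down as cells differentiate, and drive acute leukemia when they stay on. Hlf, a bZIP factor, and Mecom, a zinc finger factor whose locus also encodes Evi1, mark and maintain the most immature blood stem cells. Lmo2, an adaptor of transcription factor complexes, and the factor Mef2c belong to the same progenitors, while *Tcf7* is a gene that Notch signals switch on as the T-cell program begins.

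Barcodes of 1500 or more unique molecular identifiers (UMIs) and 500 or more genes, with no more than 10% of UMIs from mitochondrial genes, were kept as cells, which left 1788 barcodes in FL001 and 4100 in FL002. Kept barcodes held a median of 7722 UMIs in FL001, with a range of 1559 to 27025, and of 4752 in FL002, with a range of 1510 to 17589. The sequences of 10 kept barcodes occurred in both libraries. Barcodes were placed in 6 gates by UMIs of a few genes. The progenitor gates needed at least 2 UMIs of *Lmo2* and *Mef2c* together with at most 1 of *Cd3g*, and at least 2 UMIs of the B lineage genes *Ighm*, *Ebf1* and *Cd79b* together made a progenitor lymphoid-primed. These gates held 140 lymphoid-primed and 288 other progenitor barcodes in FL001, and 156 and 568 in FL002. The early gate, with at most 1 UMI of *Lmo2* and *Mef2c* and at most 2 of *Cd3g*, held 381 and 1134 barcodes. The Cd3g gate, with at least 3 UMIs of *Cd3g* and 0 of *Il2ra*, held 327 and 873. The Il2ra gate, with at least 1 UMI of *Il2ra*, held 738 and 1668, and the committed gate, with at least 2 UMIs of *Ptcra*, *Lef1* and *Bcl11b* together, held 451 and 501. Gates overlap as they are written: 275 committed barcodes of FL001 and 291 of FL002 were also in the Il2ra gate, and 75 and 276 early barcodes were. The Cd3g and committed gates shared 168 and 198 barcodes.

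A level is the UMIs of a gene summed over a gate and divided by all UMIs of that gate, in CPM. Intervals are exact 95% intervals and cover counting error only. Each name stands for 1 library and the gates are cut from the same barcodes, so error between replicates is unknown and the values carry no p. The tags come from the 3′ ends of transcripts and are not divided by length, so a gene is compared with itself across gates and levels of different genes are not ranked. All comparisons with the other progenitor gate share its barcodes. The gate genes followed their gates: *Lmo2* fell from 279 CPM in the other progenitor gate to 11.8 in the early gate of FL001, and from 311 to 20.6 in FL002. *Tcf7*, which no gate used, was at 31.7 CPM in other progenitors and 174.5 in the early gate of FL001, and at 40.6 and 229 in FL002. Of the sort markers, *Kit* was found in 44.8% and 30.5% of other progenitor barcodes, and *Ly6a*, one of the genes behind the Sca-1 epitope, in 4.17% and 4.23%.

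In the GENCODE M21 annotation of GRCm38, all 7 genes are protein coding and lie on the minus strand. The Hoxa genes form a run on chromosome 6, with *Hoxa5* at chr6:52201754-52204587, *Hoxa7* at chr6:52214491-52221854, *Hoxa9* at chr6:52223100-52231089 and *Hoxa10* at chr6:52231197-52240854. *Meis1* lies at chr11:18879817-19018985, *Hlf* at chr11:90336536-90390895 and *Mecom* at chr3:29951296-30548008. Exons of the antisense gene *Hoxaas3* overlap those of *Hoxa7*, but it had 23 UMIs in all barcodes of FL001 and 39 in FL002. The antisense genes *Gm16140* and *Gm16141*, inside *Meis1*, had 14 and 43 UMIs in FL001 and 15 and 54 in FL002. Exons of *Gm16140* overlap those of *Meis1*, and exons of *Gm16141* do not. Whether counting used the strand is not stated, so reads of overlapping exons cannot be told apart.

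The stretches before the RefSeq transcription starts of the 4 genes with the most UMIs are shown because these genes fell together and by different amounts. They are from GRCm38.p6, minus strand, 5′ to 3′, up to 250 bases, with bases of annotated exons of the same strand left out. Capitals mark matches to the 6 letters TGGGAA, the core recognised by Rbpj, the DNA-binding partner of Notch, and to TGTGGT, the core recognised by Runx factors, each read on both strands. *Hoxa9* is shown at chr6:52227371-52227620, *Hoxa7* at chr6:52218712-52218823, *Meis1* at chr11:19018986-19019219 and *Hlf* at chr11:90390918-90391167.
Hoxa9: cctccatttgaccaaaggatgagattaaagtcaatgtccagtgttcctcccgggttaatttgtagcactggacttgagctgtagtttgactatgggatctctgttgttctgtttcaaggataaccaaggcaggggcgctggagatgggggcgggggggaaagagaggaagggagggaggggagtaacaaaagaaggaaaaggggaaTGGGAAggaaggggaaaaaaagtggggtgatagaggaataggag
Hoxa7: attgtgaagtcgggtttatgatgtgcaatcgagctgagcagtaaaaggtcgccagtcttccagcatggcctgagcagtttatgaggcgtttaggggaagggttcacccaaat
Meis1: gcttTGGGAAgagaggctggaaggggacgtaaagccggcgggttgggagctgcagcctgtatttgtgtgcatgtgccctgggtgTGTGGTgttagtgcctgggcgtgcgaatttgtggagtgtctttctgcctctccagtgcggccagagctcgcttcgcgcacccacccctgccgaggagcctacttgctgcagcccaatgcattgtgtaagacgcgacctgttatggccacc
Hlf: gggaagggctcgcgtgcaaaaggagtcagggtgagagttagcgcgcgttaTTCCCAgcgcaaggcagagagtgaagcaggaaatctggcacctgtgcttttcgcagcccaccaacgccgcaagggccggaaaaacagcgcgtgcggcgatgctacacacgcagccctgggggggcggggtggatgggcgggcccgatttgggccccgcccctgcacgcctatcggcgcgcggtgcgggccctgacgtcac
The TGGGAA letters lie 44 to 39 bases before the start of *Hoxa9* and 246 to 241 bases before that of *Meis1*, and on the opposite strand 200 to 195 bases before that of *Hlf*. The TGTGGT letters lie 166 to 161 bases before the start of *Meis1*. Of 32851 promoter windows of 250 bases, 21.59% held TGGGAA and 14.05% held TGTGGT, so a match in such a window is common. The windows shown hold neither TGACAG, a Meis core, nor TGATTTAT or TGATTAAT, spellings of a joint Hox and Pbx site, which 15.86%, 0.84% and 0.63% of windows held. None of the 7 letter strings searched, which also included CAGCTG and AGATAA, was in the 112 bases shown for *Hoxa7*. The shares of windows are over 250 bases with exons kept. For *Hoxa7*, 138 bases were left out before the search, and for *Meis1* 16, so those shares are not a measure for these shorter stretches. A match is a description of letters and not of binding.

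**Figure D1:**
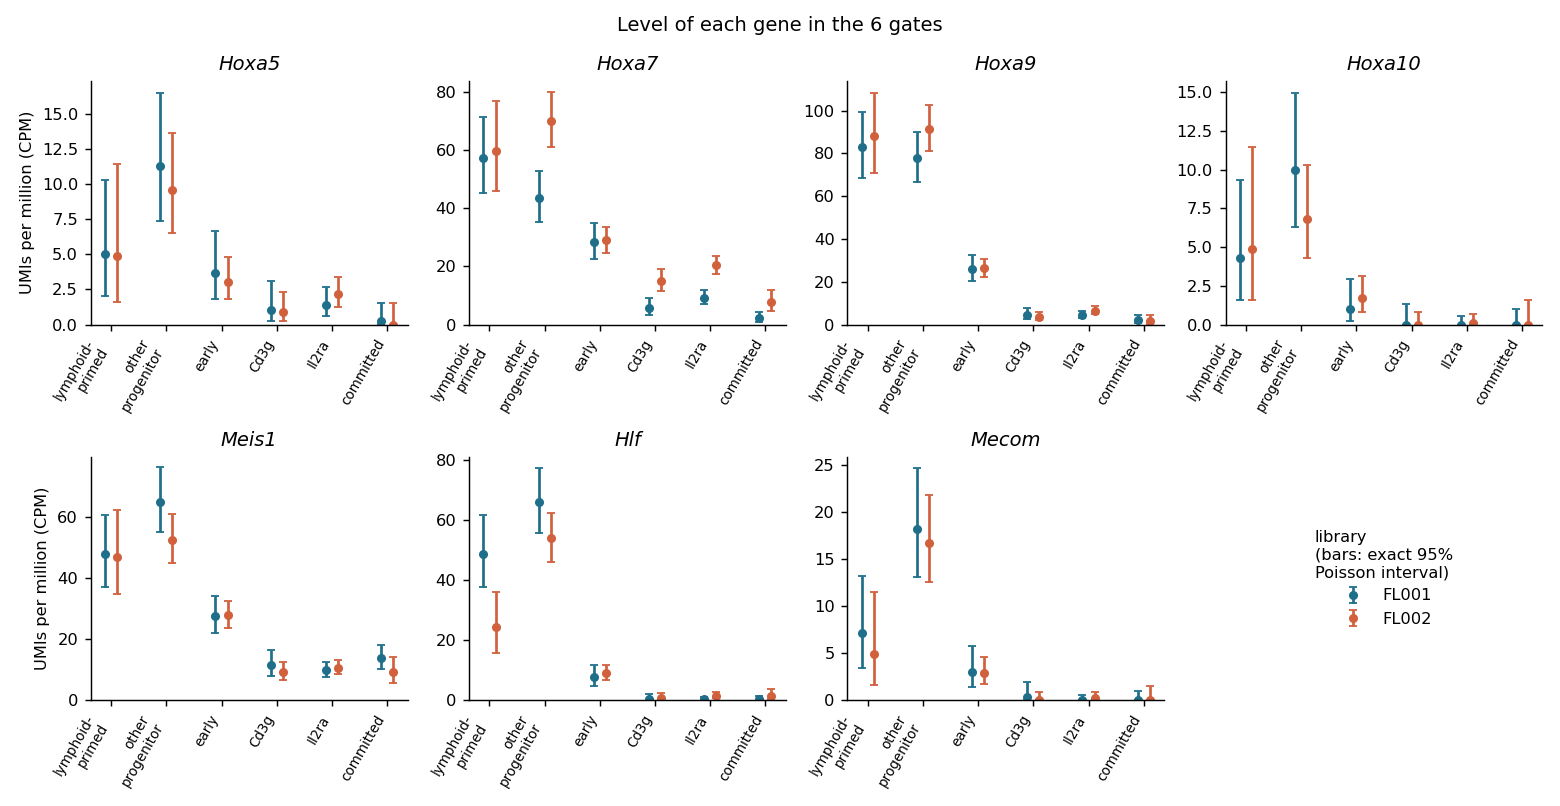
Level of each of the 7 genes (y axis, CPM, own scale per gene) in the 6 gates (x axis) of FL001 and FL002, with points for summed levels and bars for exact 95% Poisson intervals. All 7 genes were lower in the early gate than in the other progenitor gate in both libraries, and *Meis1* kept 13.7 and 9.29 CPM in the committed gate, where *Hlf* had 0.280 and 1.27.

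*Hoxa9*, the Hoxa gene most closely tied to progenitor growth and leukemia, was at 77.6 CPM (66.7 to 89.9) in the other progenitor gate of FL001 and 91.4 (81.2 to 102.4) in FL002. In the early gate it was at 25.9 (20.5 to 32.4) and 26.4 (22.4 to 30.8). It was below 7 CPM in every later gate, at 4.60 and 3.64 in the Cd3g gate, 4.50 and 6.56 in the Il2ra gate, and 2.24 and 1.69 in the committed gate. The progenitor and early intervals did not overlap in either library. The ratio of early to other progenitor was 0.334 (0.252 to 0.439) and 0.288 (0.236 to 0.352), or 0.515 in FL001 with gates set on thinned counts, and that of committed to other progenitor 0.0288 and 0.0185. A *Hoxa9* UMI was found in 34.7% and 35.2% of other progenitors, 15.7% and 10.4% of early barcodes, and 1.33% and 0.798% of committed ones. Because gates differ in depth, barcodes were also thinned to 1500 UMIs, and the shares were then 12.5% and 13.7%, 6.30% and 4.23%, and 0.222% and 0.399%.

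*Hoxa7*, the neighbour of *Hoxa9* in the cluster, fell less than *Hoxa9* on entry to the early gate. It was at 43.4 CPM (35.3 to 52.7) in other progenitors of FL001 and 70.0 (61.2 to 79.7) in FL002, and at 28.3 (22.6 to 35.0) and 28.9 (24.7 to 33.6) in the early gate. The progenitor levels of the libraries thus stood apart while the early levels were alike. The ratio of early to other progenitor was 0.653 (0.482 to 0.881) and 0.413 (0.336 to 0.506). Later gates also differed between libraries, with 5.66 and 15 CPM in the Cd3g gate, 9.16 and 20.4 in the Il2ra gate, and 2.24 and 7.60 in the committed gate. In each of these gates FL002 was the higher library, and its intervals did not overlap those of FL001. With the early gate held to 0 UMIs of *Lmo2* and *Mef2c*, the early ratio of *Hoxa7* was 0.435 (0.287 to 0.645) in FL001, past 2-fold, and 0.303 (0.232 to 0.393) in FL002. Without barcodes that held 3 or more UMIs of a list of another cell type, it was 0.903 (0.469 to 1.79) in FL001, with an interval that spans 1, and 0.313 (0.225 to 0.435) in FL002. Such UMIs were also common in progenitor and T-lineage barcodes, so this setting does not leave out other cells alone.

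*Hoxa5* and *Hoxa10*, a more anterior and a more posterior gene of the same cluster, were sparse. *Hoxa5* was at 11.3 CPM (26 UMIs) and 9.60 CPM (31 UMIs) in other progenitors, at 3.71 and 3.06 in the early gate, and had 1 and 0 UMIs in the committed gate. *Hoxa10* was at 9.97 and 6.81 CPM in other progenitors and 1.01 and 1.70 in the early gate. It then had 0 UMIs in the Cd3g and committed gates of both libraries and in the Il2ra gate of FL001, and 1 in that of FL002. Such counts of 0 limit the ratio of *Hoxa10* to other progenitors to at most 0.0623 in the Il2ra gate of FL001, and to at most 0.134 in the Cd3g gate of FL002. In the early gate, the ratios were 0.329 (0.147 to 0.688) and 0.319 (0.168 to 0.588) for *Hoxa5*, and 0.101 (0.0195 to 0.335, from 3 UMIs) and 0.25 (0.105 to 0.549) for *Hoxa10*.

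*Meis1*, the Hox cofactor, was at 65.0 CPM (55.0 to 76.3) in other progenitors of FL001 and 52.7 (45.0 to 61.2) in FL002. It was at 27.6 (22 to 34.3) and 27.9 (23.8 to 32.5) in the early gate, a ratio of 0.425 (0.320 to 0.560) and 0.530 (0.425 to 0.660). Later levels were 11.7 and 9.31 CPM in the Cd3g gate, 9.78 and 10.7 in the Il2ra gate, and 13.7 (10.1 to 18.1) and 9.29 (5.82 to 14.1) in the committed gate. Intervals of these 3 gates overlapped within each library, and the committed gate shares barcodes with both others. The ratio of committed to other progenitor was 0.211 (0.149 to 0.293) and 0.176 (0.108 to 0.276), the highest point value among the 7 genes in each library. Leaving out every barcode with 3 or more UMIs of a list of another cell type, which removed 1340 of 1788 barcodes of FL001 and 2291 of 4100 of FL002, gave *Meis1* a committed ratio of 0.0934 (0.0472 to 0.174) and 0.137 (0.0620 to 0.273). Its early ratio was then 0.224 (0.122 to 0.397) and 0.50 (0.338 to 0.742). The lists hold transcripts found across the T-cell gates, and the setting kept 166 of 451 committed barcodes in FL001 and 290 of 501 in FL002. Whether the lower ratios of *Meis1* come from the loss of other cells was not tested.

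*Hlf*, the stem cell bZIP factor, had the lowest early ratio among the genes with 100 or more progenitor UMIs. It was at 65.9 CPM (55.9 to 77.3) and 53.9 (46.2 to 62.5) in other progenitors, and at 7.75 (4.91 to 11.6) and 9.01 (6.75 to 11.8) in the early gate. Later gates held from 1 to 13 *Hlf* UMIs each. The ratio of early to other progenitor was 0.118 (0.0723 to 0.183) in FL001 and 0.167 (0.120 to 0.229) in FL002. With gates set on thinned counts these ratios were 0.387 and 0.251. That setting put 978 and 2291 barcodes in the early gate, against 381 and 1134, so it also changed which barcodes counted as early. With 0 UMIs of *Lmo2* and *Mef2c* in the early gate, the ratios were 0.0409 and 0.0984. The committed ratio was 0.00425 (0.000107 to 0.0240) from 1 UMI and 0.0235 (0.00480 to 0.0698) from 3 UMIs.

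*Mecom*, the other stem cell factor, followed a similar course at fewer UMIs. It was at 18.2 CPM (13.1 to 24.6) and 16.7 (12.6 to 21.8) in other progenitors and 3.03 (1.39 to 5.76) and 2.89 (1.68 to 4.63) in the early gate, a ratio of 0.167 (0.0713 to 0.347) and 0.173 (0.0939 to 0.303). It had 0 UMIs in the committed gate of both libraries, which limits the ratio to other progenitors to at most 0.0592 and 0.0964. Such a count of 0 does not show that *Mecom* was absent.

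Counted at a ratio of 0.5 or less, 6 of 7 genes were at least 2-fold lower in the early gate in each library. The exceptions were *Hoxa7* in FL001, at 0.653, and *Meis1* in FL002, at 0.530. Of all genes with at least 20 UMIs in the 2 gates together, a filter that all 7 passed, 4.41% of 9470 in FL001 and 3.79% of 10195 in FL002 were as much lower. All 7 were at least 2-fold lower in the Cd3g gate, against 8.03% and 6.97% of genes tested, in the Il2ra gate, against 7.84% and 6.85%, and in the committed gate, against 9.08% and 8.23%. Some members passed the filter only through the other progenitor gate. Examples are *Hoxa10*, with 0 UMIs in the Cd3g gate against 23 and 22, and *Mecom*, with 0 in the committed gate against 42 and 54. Such a gene could hardly be called other than lower, so these counts are a description. The median ratio of the 7 genes in the early gate was 0.329 and 0.288, where the median over all genes tested was 0.989 and 0.994.

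**Figure D2:**
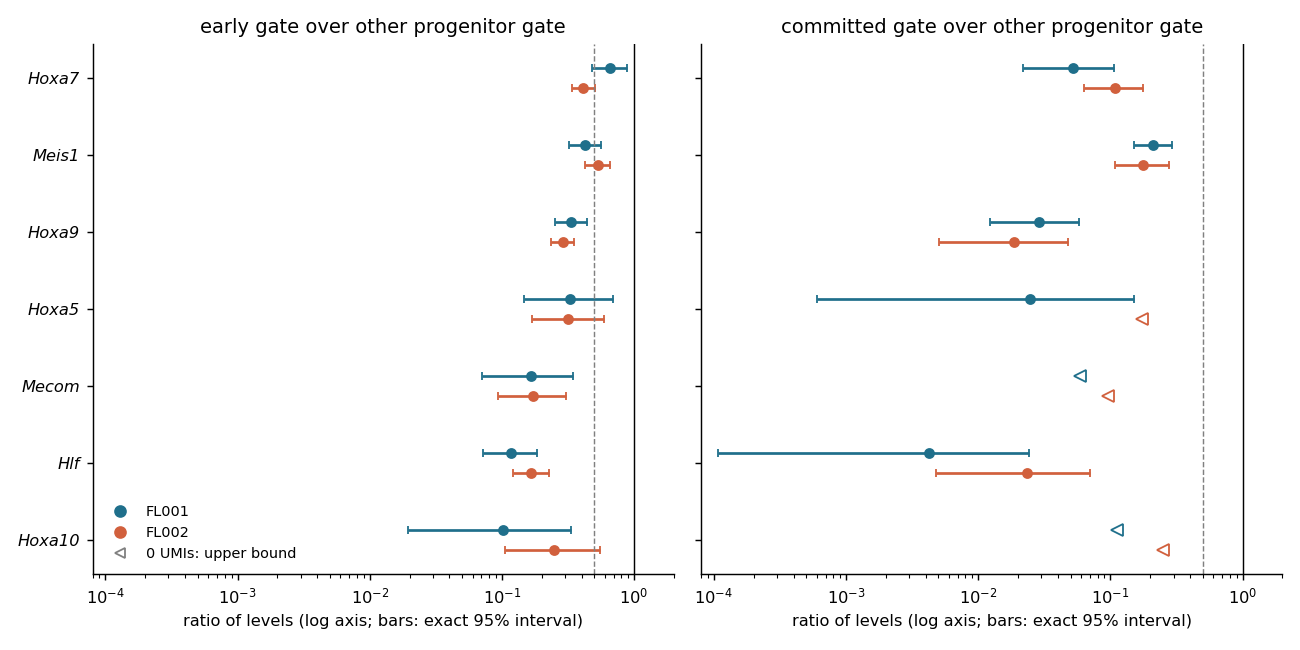
Ratio of the level in the early gate (left) and the committed gate (right) to that in the other progenitor gate (x axis, log scale) for each gene (y axis), with exact 95% intervals for both libraries. Open triangles give the upper limit where the gate held 0 UMIs, the solid line is a ratio of 1, the dashed line is 0.5. Among the filled points, *Hoxa7* and *Meis1* lie furthest right in the early gate, and *Meis1* in the committed gate.

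The genes were also set against each other, by dividing the ratio of 1 gene by that of another, which has an exact interval of its own. In the early gate, 10 of 21 such pairs in FL001 and 7 of 21 in FL002 had an interval that left out 1. The pairs reuse the 7 genes and were not set against pairs of other genes, so these numbers are a description. Pairs are given for the main setting alone. With gates on thinned counts, *Hlf* and *Hoxa9* stood closer in FL001, at early ratios of 0.387 and 0.515. *Hoxa7* was retained 1.95 times (1.29 to 2.95) as much as *Hoxa9* in FL001 and 1.43 times (1.07 to 1.91) in FL002. *Hoxa7* exceeded *Hlf* by 5.55 times (3.20 to 9.83) and 2.47 times (1.69 to 3.64), *Meis1* exceeded *Hlf* by 3.61 times (2.11 to 6.33) and 3.17 times (2.14 to 4.70), and *Hoxa9* exceeded *Hlf* by 2.84 times (1.67 to 4.98) and 1.73 times (1.18 to 2.53). *Meis1* exceeded *Mecom* by 2.55 times (1.15 to 6.25) and 3.06 times (1.66 to 5.87). *Hlf* and *Mecom* could not be separated, at 0.706 (0.288 to 1.87) and 0.968 (0.501 to 1.94). *Hoxa7* over *Meis1* stood at 1.54 (1.01 to 2.33) in FL001 and 0.780 (0.576 to 1.06) in FL002. The FL002 interval held 1, so the order of these 2 genes is not settled there. *Hoxa7* exceeded *Mecom* by 3.92 times (1.74 to 9.65) and 2.39 times (1.31 to 4.55). The pairs whose intervals left out 1 in both libraries were therefore *Hoxa7* above *Hoxa9*, *Hlf* and *Mecom*, *Meis1* above *Hlf* and *Mecom*, and *Hoxa9* above *Hlf*. *Hoxa9* was retained less than *Meis1* in FL002, at 0.545 (0.403 to 0.735), with 0.787 (0.529 to 1.17) in FL001.

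In the committed gate, *Hoxa9* was retained 0.137 times (0.0545 to 0.305) as much as *Meis1* in FL001 and 0.105 times (0.0259 to 0.317) in FL002. *Hoxa7* was retained 0.245 times (0.0964 to 0.553) as much as *Meis1* in FL001, while FL002 gave 0.615 (0.301 to 1.25). From the Il2ra gate to the committed gate, which share barcodes, *Hoxa7* had a ratio of 0.244 (0.101 to 0.514) and 0.373 (0.216 to 0.607). *Meis1* had one of 1.40 (0.945 to 2.07) and 0.866 (0.517 to 1.39) over the same step. *Meis1* thus had the highest point value of the committed ratio in both libraries. In FL002 its point value was also the highest in the early gate, where its order with *Hoxa7* is not settled. Its committed interval met that of *Hoxa5* in FL001, and those of *Hoxa5*, *Hoxa7* and *Hoxa10* in FL002. As pairs in FL002, *Hoxa5* over *Meis1* had an interval of 0 to 1.07 and *Hoxa10* over *Meis1* one of 0 to 1.54, so their order is not settled there. A change in the order of *Hoxa7* and *Meis1* between the early and committed gates was seen in FL001 alone.

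**Figure D3:**
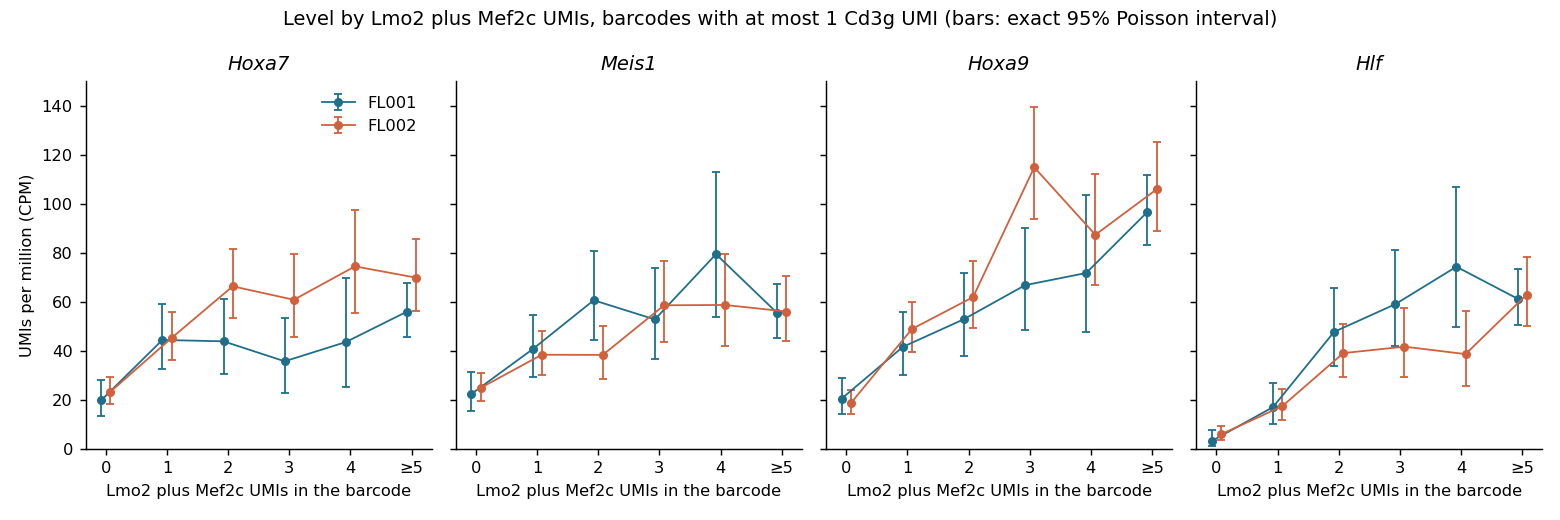
Level of *Hoxa7*, *Meis1*, *Hoxa9* and *Hlf* (y axis, CPM, with exact 95% Poisson intervals) in barcodes with at most 1 *Cd3g* UMI, split by their UMIs of *Lmo2* and *Mef2c* together (x axis). At 0 of these UMIs, *Hoxa7*, *Meis1* and *Hoxa9* stood between 18.6 and 24.8 CPM in both libraries, and *Hlf* at 3.20 and 5.90.

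The gates turn a gradient into classes, so the 4 genes with most counts were also read along the UMIs of *Lmo2* and *Mef2c* in barcodes with at most 1 *Cd3g* UMI. *Hoxa9* was at 96.6 and 106 CPM in barcodes with 5 or more such UMIs, at 52.9 and 61.9 with 2, at 41.6 and 48.9 with 1, and at 20.5 and 18.6 with 0. *Hoxa7* was at 55.9 and 69.8 CPM with 5 or more, 44.4 and 45.2 with 1, and 19.8 and 23.3 with 0. *Meis1* took a like course, at 55.4 and 56.0, 40.6 and 38.4, and 22.4 and 24.8. *Hlf* was at 61.2 and 62.9 with 5 or more, already at 17.0 and 17.3 with 1, and at 3.20 and 5.90 with none. At 1 UMI, *Hoxa7* thus kept 0.793 (0.550 to 1.13) and 0.647 (0.476 to 0.879) of its level at the progenitor end, where *Hlf* kept 0.278 (0.159 to 0.459) and 0.276 (0.178 to 0.418). Between the ends, the ratio was 0.354 (0.229 to 0.533) and 0.334 (0.242 to 0.458) for *Hoxa7*, and 0.404 (0.267 to 0.597) and 0.444 (0.319 to 0.618) for *Meis1*. It was 0.212 (0.141 to 0.310) and 0.176 (0.128 to 0.240) for *Hoxa9*, and 0.0522 (0.0166 to 0.125) and 0.0938 (0.0537 to 0.156) for *Hlf*. A shallow barcode is more likely to show no *Lmo2* or *Mef2c* UMI whatever it expresses, so this axis also follows depth.

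**Figure D4:**
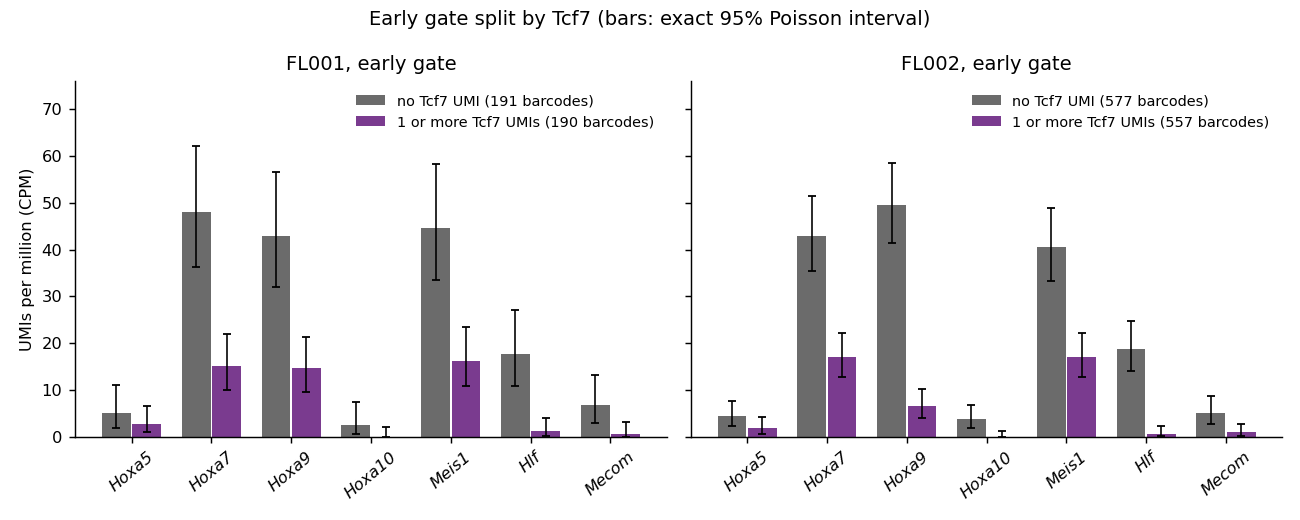
Level of each gene (y axis, CPM, bars from 0 with exact 95% Poisson intervals) in early gate barcodes with no *Tcf7* UMI (grey) and with 1 or more (purple). The summed level of each gene was lower where *Tcf7* was found, in both libraries, with intervals that overlap for *Hoxa5* and, in FL001, for *Hoxa10* and *Mecom*.

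Within the early gate, the genes divided by *Tcf7*, which was found in 190 of 381 barcodes of FL001 and 557 of 1134 of FL002. *Hoxa7* was at 48.0 CPM without *Tcf7* and 15.2 with it in FL001, and at 42.8 and 17.0 in FL002, a ratio of 0.316 (0.192 to 0.508) and 0.397 (0.282 to 0.553). *Meis1* was at 44.6 and 16.3, and at 40.6 and 17.0, a ratio of 0.365 (0.224 to 0.584) and 0.419 (0.297 to 0.586). *Hoxa9* was at 42.9 and 14.6, and at 49.5 and 6.62, a ratio of 0.340 (0.203 to 0.556) and 0.134 (0.0802 to 0.213). *Hlf* was nearly confined to the barcodes with no *Tcf7* UMI, which held 21 of its 23 UMIs in FL001 and 51 of 53 in FL002. The other members had under 20 UMIs in the gate. These 4 genes were all at least 2-fold lower where *Tcf7* was found, as were 3.53% and 3.72% of all genes with at least 20 UMIs in both classes together. *Hlf* passed that filter only through the barcodes with no *Tcf7* UMI. It could hardly be called other than lower, so the count is a description. Barcodes with *Tcf7* were the deeper ones, with a median of 9172 UMIs against 6001 in FL001 and 5602 against 4422 in FL002, and the part of depth in these differences was not tested. Early barcodes with no *Il2ra* UMI held 30.0 and 32.0 CPM of *Hoxa7*, 34.0 and 32.0 of *Meis1*, 29.1 and 32.0 of *Hoxa9* and 10.1 and 11.8 of *Hlf*.

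Kept barcodes with no *Tcf7* UMI, of any gate, were also split by *Lmo2*. Those with no *Lmo2* UMI, 446 in FL001 and 1189 in FL002, were set against the 347 and 592 with at least 1. *Hoxa7* kept 0.644 (0.490 to 0.842) and 0.50 (0.410 to 0.608) of its level, and *Meis1* 0.420 (0.318 to 0.549) and 0.455 (0.364 to 0.569). *Hoxa9* kept 0.301 (0.231 to 0.389) and 0.344 (0.286 to 0.413), *Hlf* 0.158 (0.105 to 0.230) and 0.247 (0.184 to 0.327), and *Mecom* 0.154 and 0.199. In this split, which uses neither *Mef2c* nor *Cd3g* but many of the same barcodes, *Hlf* and *Mecom* kept the least of their levels among these 5 genes. Barcodes of later gates can fall in the class with no *Lmo2* UMI, so the split does not isolate the loss of *Lmo2*. A shallow barcode is also more likely to show no UMI of *Lmo2* or *Tcf7*, and the part of depth was not tested. A barcode with both transcripts was rare, with 43 in FL001 and 97 in FL002, and *Hlf* was there at 6.66 and 17.6 CPM against 71.4 and 53.0 with *Lmo2* alone.

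Among the progenitors, the lymphoid-primed gate held less of the stem cell factors and as much of *Hoxa9*. *Mecom* was at 7.15 CPM (3.43 to 13.1) and 4.90 (1.59 to 11.4) there, a ratio to other progenitors of 0.392 (0.176 to 0.795) and 0.293 (0.0915 to 0.727). *Hlf* was at 48.6 and 24.5, a ratio of 0.737 (0.545 to 0.988) and 0.455 (0.286 to 0.694). *Hoxa9* was at 82.9 and 88.2, a ratio of 1.07 (0.838 to 1.36) and 0.966 (0.754 to 1.23), and *Hoxa7* at 57.2 and 59.8, a ratio of 1.32 (0.970 to 1.79) and 0.854 (0.633 to 1.14). *Meis1* was at 47.9 and 47.0, a ratio of 0.736 (0.543 to 0.988) and 0.894 (0.635 to 1.24). At least 2-fold lower were 3 of 7 genes in FL001, *Hoxa5*, *Hoxa10* and *Mecom*, against 4.09% of all genes tested, and 2 in FL002, *Hlf* and *Mecom*, against 4.69%. Of these, the intervals of *Hoxa5* and *Hoxa10* in FL001 reached past 1. Gates on counts thinned to 1500 UMIs left 8 and 10 lymphoid-primed barcodes, and *Hlf* then had a ratio of 1.22 (0.377 to 3.04) in FL001 and 0.915 (0.184 to 2.80) in FL002, and *Mecom* 0.961 (0.0232 to 6.01) in FL002. In the same setting *Hoxa9* had 0.581 in FL001, where *Hoxa5*, *Hoxa10*, *Meis1* and *Mecom* had 0. In FL002 *Hoxa5* had 4.80 and *Hoxa10* 0.

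Progenitor barcodes often held a transcript of these genes. Any of the 7 was found in 71.9% of other progenitors in FL001 and 67.8% in FL002, in 39.9% and 31.6% of early barcodes, and in 12.2% and 7.78% of committed ones. At least 3 of the 7 were found in 22.2% and 15.3% of other progenitors and in 4.99% and 2.38% of early barcodes. After thinning to 1500 UMIs, the shares with any of the 7 were 40.3% and 38%, 14.2% and 14.7%, and 2.44% and 2.99%. Other progenitors with an *Hlf* UMI held 135 CPM of *Hoxa9* against 57.4 in those without in FL001, and 130 against 81.1 in FL002, a ratio of 2.36 (1.73 to 3.20) and 1.60 (1.24 to 2.07). Those with *Mecom* held 3.54 (2.48 to 4.98) and 2.28 (1.59 to 3.18) times the *Hoxa9* of those without, and 2.05 (1.29 to 3.15) and 2.66 (1.70 to 4.04) times the *Hlf*. Barcodes with a stem cell factor were thus also richer in *Hoxa9*. For *Meis1*, the level was 83.5 CPM with *Hlf* against 58.6 without in FL001 and 63.5 against 49.8 in FL002, with ratios of 1.43 (0.994 to 2.02) and 1.28 (0.882 to 1.82) that reach 1 and overlap those of *Hoxa9*. In the early gate, the 19 and 41 barcodes with *Hlf* held 5.88 (3.10 to 10.5) and 6.88 (4.37 to 10.5) times the *Hoxa9* of the others. They held 0.0942 (0.0114 to 0.342) and 0.0485 (0.00587 to 0.176) times the *Tcf7*, which restates the split of this gate by *Tcf7*. The intervals take UMIs as independent, although they come from few barcodes.

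Markers of other cell types in the progenitor and early gates were counted beside these values. All 11 granulocyte and monocyte markers were found in both, with a summed level of 2856 CPM in other progenitors and 3789 in the early gate of FL001, and of 1707 and 1148 in FL002. At least 3 of their UMIs were in 69.8% and 44.1% of barcodes of these gates in FL001, and in 52.1% and 24.3% in FL002. Among them, *Mpo*, the myeloperoxidase gene of granulocyte and monocyte precursors and also a transcript of multipotent progenitors, was at 1019 and 714.5 CPM in other progenitors. Innate lymphoid and NK cell markers, of which 7 of 9 were found in other progenitors and 9 in the early gate of both libraries, had 3 or more UMIs in 20.1% of other progenitors and 50.4% of early barcodes in FL001, and in 12.9% and 37.7% in FL002. Mast cell and basophil markers, of which 3 to 6 of 6 were found, had as many in 5.21% and 21.3%, and in 5.99% and 15.7%. Megakaryocyte and erythroid markers had as many in 6.25% and 3.94%, and in 5.63% and 1.5%. Barcodes with lymphoid, NK, mast cell or basophil markers thus made up more of the early gate than of other progenitors, and those with granulocyte or megakaryocyte markers less, and their part in the members' levels was not tested. The lymphoid and NK list also had 3 or more UMIs in 64.8% and 45.4% of the Cd3g gate, and in 59.9% and 39.1% of the committed gate. The mast cell and basophil list had as many in 25.1% and 11.8%, and in 16.0% and 5.99%. These 2 lists therefore do not set other cells apart from T-lineage barcodes. At least 3 UMIs of a list of 9 markers of mature blood cells were found in 18 and 19 other progenitors and 21 and 16 early barcodes. Of this list, *S100a8*, a neutrophil transcript, was at 1379 CPM in the early gate of FL001 and 282 in FL002. *Meis1* was at 61.4 CPM in those 21 early barcodes and 26.1 in the rest of FL001, and at 41.0 and 27.7 in FL002, from 8 and 3 UMIs. *Hoxa7* and *Hoxa9* had 0 UMIs in them in both libraries. In other progenitors of FL001, barcodes with a *Meis1* UMI held 2884 CPM of *Pf4*, a megakaryocyte transcript, against 15.4 in those without, from 8 of 98 barcodes, while FL002 had 57.0 against 238. Without the barcodes of mature blood cells, the number of genes at least 2-fold lower was the same in the early, committed and lymphoid-primed comparisons of both libraries, and the early ratio of *Meis1* was 0.407 and 0.526. Their part in the *Meis1* level was otherwise not tested.

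**Figure D5:**
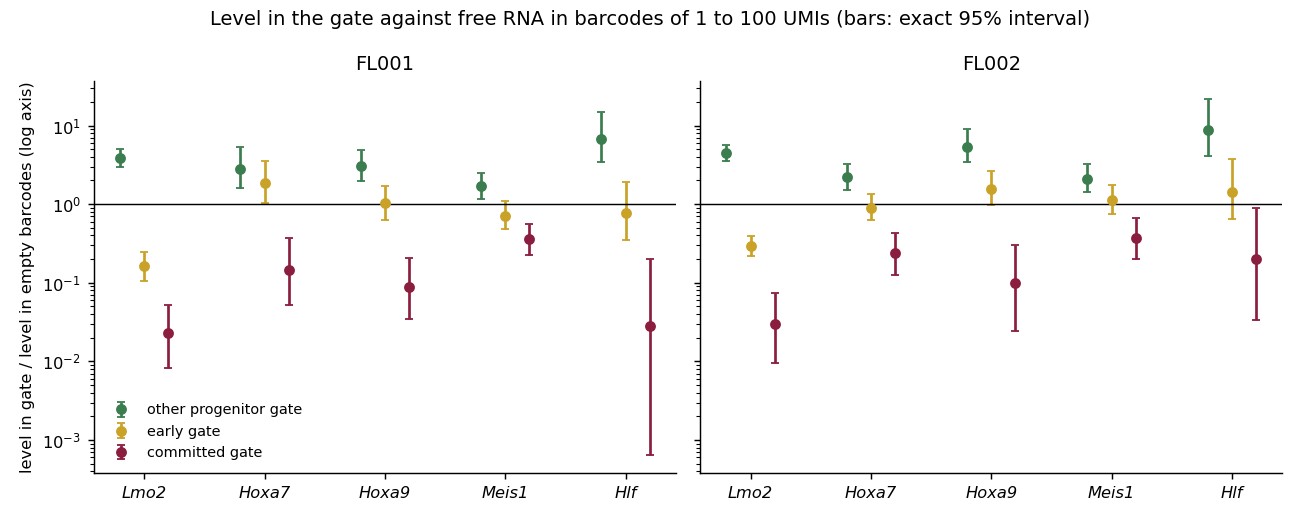
Level of *Lmo2* and the 4 genes with most UMIs in the other progenitor, early and committed gates, divided by the level in empty barcodes of 1 to 100 UMIs (y axis, log scale), with exact 95% intervals. In the committed gate *Meis1* lay at 0.355 and 0.373, above *Lmo2* at 0.0231 and 0.0300.

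Free RNA puts UMIs into droplets of cells that do not express a gene, so the low counts of the T-cell gates were set against barcodes of 1 to 100 UMIs. In the early gate, *Lmo2* was at 0.162 (0.104 to 0.248) and 0.293 (0.219 to 0.394) of its level in empty barcodes, while *Hoxa7* was at 1.83 (1.03 to 3.50) and 0.903 (0.627 to 1.33), *Meis1* at 0.716 (0.476 to 1.10) and 1.12 (0.747 to 1.74) and *Hoxa9* at 1.02 (0.635 to 1.71) and 1.56 (0.965 to 2.66). The rule of the early gate itself holds *Lmo2* low. In the committed gate, *Lmo2* was at 0.0231 (0.00817 to 0.0530) and 0.0300 (0.00949 to 0.0731) of its level in empty barcodes, and *Hoxa9* at 0.0883 (0.0341 to 0.204) and 0.0999 (0.0247 to 0.301). *Meis1* was at 0.355 (0.226 to 0.565) and 0.373 (0.203 to 0.676), and its interval lay above that of *Lmo2* in both libraries. *Hoxa7* was at 0.145 (0.0527 to 0.370) and 0.237 (0.127 to 0.429), with an interval above that of *Lmo2* in FL002. Markers of other cell types had a median of 0.0231 over 15 genes in FL001 and 0.190 over 13 in FL002, from 0.0100 (*Pf4*) to 1.57 (*Cpa3*) in FL001 and from 0.0156 (*S100a8*) to 1.16 (*Nkg7*) in FL002, so that *Meis1* lay within the range of these markers. The few counts of *Hoxa9* and *Hlf* in committed barcodes had intervals that met that of *Lmo2* or rested on 1 and 3 UMIs, and nothing is read from them.

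The committed barcodes with *Meis1* were 46 of 451 in FL001 and 21 of 501 in FL002, with at most 2 UMIs each. They were deeper than the others, with a median of 10520 against 6642 UMIs and of 6152 against 4129, and after thinning the share with *Meis1* was 1.33% (0.490 to 2.87) and 1.40% (0.564 to 2.86). In FL001 they were close to the other committed barcodes in *Tcf7*, at 243.7 against 252.8 CPM and a ratio of 0.964 (0.789 to 1.17), and in *Cd3g*, at 3758 against 3600, and they held 1 *Lmo2* UMI. In FL002, *Tcf7* was at 311 against 369 CPM and *Cd3g* at 2612 against 3366, and 3 of the 5 *Lmo2* UMIs of the gate lay in these 21 barcodes. The summed level of *Mpo* was higher in them in both libraries, at 24.4 against 9.41 CPM and 124 against 30.1. The ratio was 2.59 (1.20 to 5.23) and 4.13 (2.31 to 7.03). These intervals take UMIs as independent, and the number of barcodes that held the *Mpo* UMIs is not given. In the whole committed gate, 7 barcodes of each library held 3 or more UMIs of the granulocyte and monocyte list. Whether barcodes with RNA of more than 1 cell account for part of these counts was not tested.

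The lists of related genes set the members in context, as counts of genes at least 2-fold lower or higher in the early gate. Of the cofactors of Hox proteins, *Pknox1*, a relative of Meis1, was at 14.7 and 20.6 CPM in FL001 and 15.2 and 16.8 in FL002, with intervals of the ratio that span 1. Of 14 tested regulators that write or read Hoxa chromatin, 2 were lower in FL001 and 0 in FL002, against 4.41% and 3.79% of all genes. Their median ratio was 1.0 and 1.02, where the median over all genes tested was 0.989 and 0.994. *Kmt2a*, the methyltransferase that keeps Hoxa genes on, named after its values were seen, had a ratio of 0.613 (0.453 to 0.826) and 0.903 (0.717 to 1.14). *Suz12*, a subunit of the repressive complex PRC2, had 1.27 (1.04 to 1.56) and 1.12 (0.959 to 1.30). *Mllt3*, a chromatin reader, had 0.487 (0.337 to 0.697) and 0.690 (0.503 to 0.949), and *Psip1*, a chromatin tether, 1.16 (1.04 to 1.28) and 1.01 (0.935 to 1.09).

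Of 18 stem cell genes tested, 9 were lower in FL001 and 7 in FL002, with 0 higher and a median ratio of 0.572 and 0.625, where 4.41% and 3.79% of all genes were as much lower. *Hmga2*, a chromatin protein of fetal stem cells, had a ratio of 0.207 (0.174 to 0.246) and 0.297 (0.268 to 0.329). *Slamf1*, a surface marker of stem cells, had 0.130 (0.0244 to 0.444, from 3 UMIs) and 0.431 (0.177 to 1.02), while *Kit* had 0.881 (0.720 to 1.08) and 1.04 (0.884 to 1.24). Of 10 legacy progenitor genes, those that early T-cell precursors inherit and then lose and 4 of which are also in the stem cell list, 3 were lower in each library. *Flt3*, a cytokine receptor, had 0.328 (0.214 to 0.492) and 0.304 (0.222 to 0.413), and *Lyl1*, a partner of Lmo2, 1.13 (0.993 to 1.28) and 1.0 (0.906 to 1.11). By the committed gate, 8 and 7 of the 10 were lower, against 9.08% and 8.23% of all genes. T-lineage genes went the other way, with 12 of 13 and 14 of 14 tested at least 2-fold higher in the early gate, against 3.25% and 3.82% of all genes. The ratio was 8.74 (3.19 to 33.5) and 19.8 (8.31 to 61.6) for *Trdc*, a constant segment of the T-cell receptor delta chain, and 1.80 (1.45 to 2.23) and 2.19 (1.85 to 2.60) for *Notch1*, the receptor that DL4 engages. All 15 were at least 2-fold higher in the Cd3g gate, against 6.36% and 7.02% of all genes, in the Il2ra gate, against 7.66% and 8.27%, and in the committed gate, against 8.65% and 8.46%. Some genes passed the filter only through the gate where they were high, such as *Trdc*, with 4 and 5 UMIs in other progenitors. In the lower lists, *Gata2* had 6 and 7 UMIs in the committed gate against 128 and 131. Such genes could hardly be called otherwise, so the counts are a description. In the early gate *Rag2*, also a T-lineage gene, did not pass in FL002, at 0.915 (0.301 to 3.06). *Rag1* and *Rag2* did not pass in FL001, at 3.88 and 1.55.

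Few of the other Hox genes were found. Of 35 listed, 11 had a UMI in kept barcodes, and *Hoxb4* alone reached 20 UMIs in both libraries. It was at 5.64 CPM (3.0 to 9.64) in other progenitors and 2.70 (1.16 to 5.31) in the early gate of FL001, and at 4.03 (2.14 to 6.88) and 2.89 (1.68 to 4.63) in FL002. *Hoxa3*, whose locus runs over *Hoxa5* on the same strand, had 5 and 7 UMIs in other progenitors.

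Genes most like each member were taken from Pearson correlations of log2(CPM + 10) over the 12 points of 6 gates in 2 libraries, among 6071 genes of at least 20 CPM in some gate of each library. Points share libraries and barcodes, and the values are a description. *Hoxa9* ran closest to *Cd34*, a surface protein of progenitors, at 0.997, then *Ptgs1* and *Cpq*. *Cd34* went from 236 to 91.0 and 13.1 CPM over other progenitor, early and committed gates of FL001, and from 251 to 85.0 and 11.8 in FL002. *Hlf* ran closest to *Adgrl4*, an adhesion receptor, at 0.994, which went from 135 to 12.5 and 0.560 and from 116.5 to 18.9 and 1.69, then to *Sepw1* and *Ecscr*. *Hoxa7* was most like *Gnb4*, at 0.986, *Elk3* and *4931406C07Rik*, and *Meis1* was most like *Nenf*, at 0.985, *Ecscr* and *Hnrnpr*. A correlation takes no account of the size of a change. From other progenitors to the committed gate, *Hnrnpr* went only from 263.2 to 206.2 CPM in FL001 and from 261.7 to 200.6 in FL002. *Elk3* went from 43.8 to 25.7 and from 57.0 to 29.6. Among the members, *Hoxa9* and *Meis1* had a correlation of 0.978, and *Hoxa7* and *Hlf* 0.885.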

How the data were processed

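RNA was captured with 10X Chromium 3′ chemistry and sequenced on an Illumina NextSeq. The deposited files hold raw UMI counts per gene and barcode, which the authors made with CellRanger, with no normalization and no choice of cells. The submitters' processing notes name the build mm9, and the CellRanger version is not given in the sources used here. Of 28692 gene identifiers, 28339 (98.8%) were found in GENCODE M21, which gave the locations. RefSeq windows of GRCm38.p6 gave the sequences.

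Each library was read alone, with 16320118 UMIs in FL001 and 22651783 in FL002. Kept barcodes were gated on raw counts, and no doublets were removed in the values reported. Intervals at 95% are exact Poisson for levels, exact Clopper-Pearson for shares, exact conditional binomial for ratios and exact conditional odds ratios for pairs of genes. UMIs without replicate libraries give counting error only, and a count of 0 is given with the upper limit of its ratio. A gene was tested with 20 UMIs in both gates together and called at a 2-fold difference. Steps were tested on simulated data. Python 3.11.15, numpy 2.4.6, scipy 1.17.1, pandas 2.3.3 and matplotlib 3.10.9 were used.

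The members, gates and gene lists were chosen with earlier results of these data known. The text names the 7 members, the gate genes and the other Hox genes. For each list it names a few of those with the most UMIs, most retained or least retained genes, and for members with at least 100 UMIs in each library the 3 genes most alike. *Tcf7*, *Kit*, *Ly6a*, *Cd34* and the marker genes of other cells are named as checks. Of the 12 alternative settings tried, 11 were planned and 1, without mature blood cells, was chosen after seeing the data. Counts over the list of Hox cofactors are not reported here.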

Additional observations from a re-analysis of the deposited data

Results flagged for a closer look

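A few kept barcodes met no gate, 6 in FL001 and 13 in FL002, and so entered none of the comparisons between gates. By the gate rules, each had at least 2 UMIs of *Lmo2* and *Mef2c* together, 2 of *Cd3g* and 0 of *Il2ra*. They thus met the *Lmo2* and *Mef2c* rule of the progenitor gates and not the *Cd3g* rule. These barcodes held some members at levels above what 3 UMIs in them would give, 51.0 CPM in FL001 and 27.9 in FL002. In FL001 *Hoxa7* was at 85.0 CPM (27.6 to 198, from 5 UMIs). In FL002 *Hoxa7* was at 55.7 CPM (20.4 to 121, from 6 UMIs), *Hoxa9* at 65.0 CPM (26.1 to 134, from 7 UMIs) and *Meis1* at 55.7 CPM (20.4 to 121, from 6 UMIs). These barcodes had a median of 10040 UMIs in FL001 and 8702 in FL002, above the 7722 and 4752 of all kept barcodes.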

How the results depend on the processing

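No paired analysis was possible because each library is the only one with its name, and for the same reason no replicate could be left out. The count of members at least 2-fold lower kept within 1.5 times in 65 of 66 combinations of a comparison, a library and an alternative. The exception was the lymphoid-primed gate of FL002, with 1 gene in place of 2 when gates were set on counts thinned to 1500 UMIs. Of 462 ratios of members, 420 moved by less than their interval, 41 moved by more and 1, whose interval had left out 1, turned. This was *Hlf* in the lymphoid-primed gate of FL001, which went from 0.737 to 1.22 with thinned gates, which left 8 barcodes there. Ratios whose interval spanned 1 also crossed it. In that gate and setting, *Hoxa5* went from 0.510 to 4.80 in FL002, and *Hoxa9* from 1.07 to 0.581 in FL001. Thinned gates also raised the early ratio of *Hlf* to 0.387 and 0.251 and that of *Hoxa9* in FL001 to 0.515. The early gate then held 978 and 2291 barcodes, against 381 and 1134, and the other progenitor gate 100 and 212, against 288 and 568. Barcodes that were not early in the main setting thus entered the early gate. With *Lmo2* and *Mef2c* at 0 in the early gate, *Hoxa7* fell to 0.435 and 0.303, *Hoxa9* to 0.222 and 0.180, and *Hlf* to 0.0409 and 0.0984. Leaving out barcodes with 3 or more UMIs of a list of another cell type kept 448 of 1788 and 1809 of 4100, and moved the early ratio of *Hoxa7* in FL001 to 0.903, that of *Meis1* in FL001 to 0.224 and its committed ratio to 0.0934. That last setting also left out many T-lineage barcodes, and kept 166 of 451 committed ones in FL001 and 290 of 501 in FL002. What moved these ratios was not tested. Depth limits *Hoxa5*, *Hoxa10* and *Mecom*, with 32 to 78 UMIs in a library.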
